A study of Mus musculus with 2 samples.

Results

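The genes of the interferon response and of antigen processing were examined in primary osteoblasts, the bone-forming cells, of Slc39a13-KO mice against those of wild-type mice. Slc39a13, also named ZIP13, is a zinc transporter, and the targeted allele replaced exons 6 to 8 with a Neo cassette. The 36 genes were taken by name, and every probe set annotated to exactly 1 of these symbols was read. Each probe set reads a transcript by several short probes. Of the 36 genes, 35 had such a probe set, among 18193 genes of the array, and together they had 56 of 34945 probe sets. The remaining gene, Isg15, had only a probe set that names a further gene, and no value is given for it.

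The series holds 1 array of Slc39a13-KO osteoblasts and 1 array of wild-type osteoblasts. Both cultures were made from calvaria, the skull vault, of newborn mice. How many pups each culture came from, and of which sex, is not stated in the labels or the methods. No interferon was added in any step the labels describe. With 1 array per genotype, no test was possible and no p-value is given. The only error in the data is the spread between probe sets of a gene, which had a median SD of 0.34 on the log2 scale over all genes with more than 1 measured probe set. It does not measure the variation between mice, cultures or arrays.

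Interferons are secreted proteins that alert cells to infection. Type I interferons bind the receptor of Ifnar1 and Ifnar2, and type II interferon binds that of Ifngr1 and Ifngr2. The receptors act through JAK kinases on STAT proteins, which enter the nucleus. A complex that holds Stat2 and Irf9 binds the interferon-stimulated response element (ISRE), and STAT dimers bind the gamma-activated site (GAS). The induced genes include GTPases that attack the vacuoles of microbes, proteins that bind or cut viral RNA, and the machinery that cuts proteins into peptides and loads them on class I molecules. Many of these genes have a low level in cells without infection.

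Signals are in MAS5 units, brought to a common trimmed mean in both arrays. Signals under a floor of 85.1, the 50th percentile of both arrays pooled, were raised to it. A gene was measured if a probe set of it exceeded the floor in at least 1 array. The ratio is Slc39a13-KO over wild-type, on the log2 scale, averaged over the measured probe sets of a gene. A gene was called higher or lower at 2-fold or more with all its measured probe sets on the same side. A ratio with 1 array at the floor is a bound, given as at least N-fold. Over all 12269 measured genes, 983 (8.01%) were called higher and 727 (5.93%) lower, with a median log2 ratio of 0.11. The share of calls that were higher was 57.5%, but it was 38.3% with median, 47.6% with quantile, 49.2% with loess and 96.3% with poly-A control scaling, so directions are relative to the bulk of genes. Slc39a13 itself had a signal of 90.4 in Slc39a13-KO osteoblasts and 1309 in wild-type osteoblasts. Of 11 osteoblast markers 6 were measured, of which 2 (33.3%) were called higher, against 8.01% of all genes. Pth1r, a receptor of parathyroid hormone, had 1534 in Slc39a13-KO and 295 in wild-type osteoblasts, and Alpl, the alkaline phosphatase, had 197 in Slc39a13-KO osteoblasts and lay under the floor in wild-type osteoblasts. Col1a1, Col1a2, Sparc and Sp7 were not called, and Ibsp, the bone sialoprotein, was at the floor in both.

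Of the 30 genes that were measured, 25 were not called. A single gene (3.33%) was called higher, against 8.01% of all genes, and 4 (13.3%) were called lower, against 5.93% of all genes. The gene called higher was Irf9, and those called lower were Gbp2, Irgm1, Gbp3 and Oasl2. The median log2 ratio was -0.02, against 0.11 for all measured genes, and 17 of the 30 lay within 1.5-fold, against 67.7% of all measured genes. Irf8, Mx1, Mx2, Rsad2 and Cxcl10 were at the floor in both arrays, so nothing can be said of a difference there. Of the 30, 20 were read by 1 measured probe set and 10 by several, and for 2 of these, Ifnar2 and Stat2, the probe sets lay on opposite sides.

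**Figure D1:**
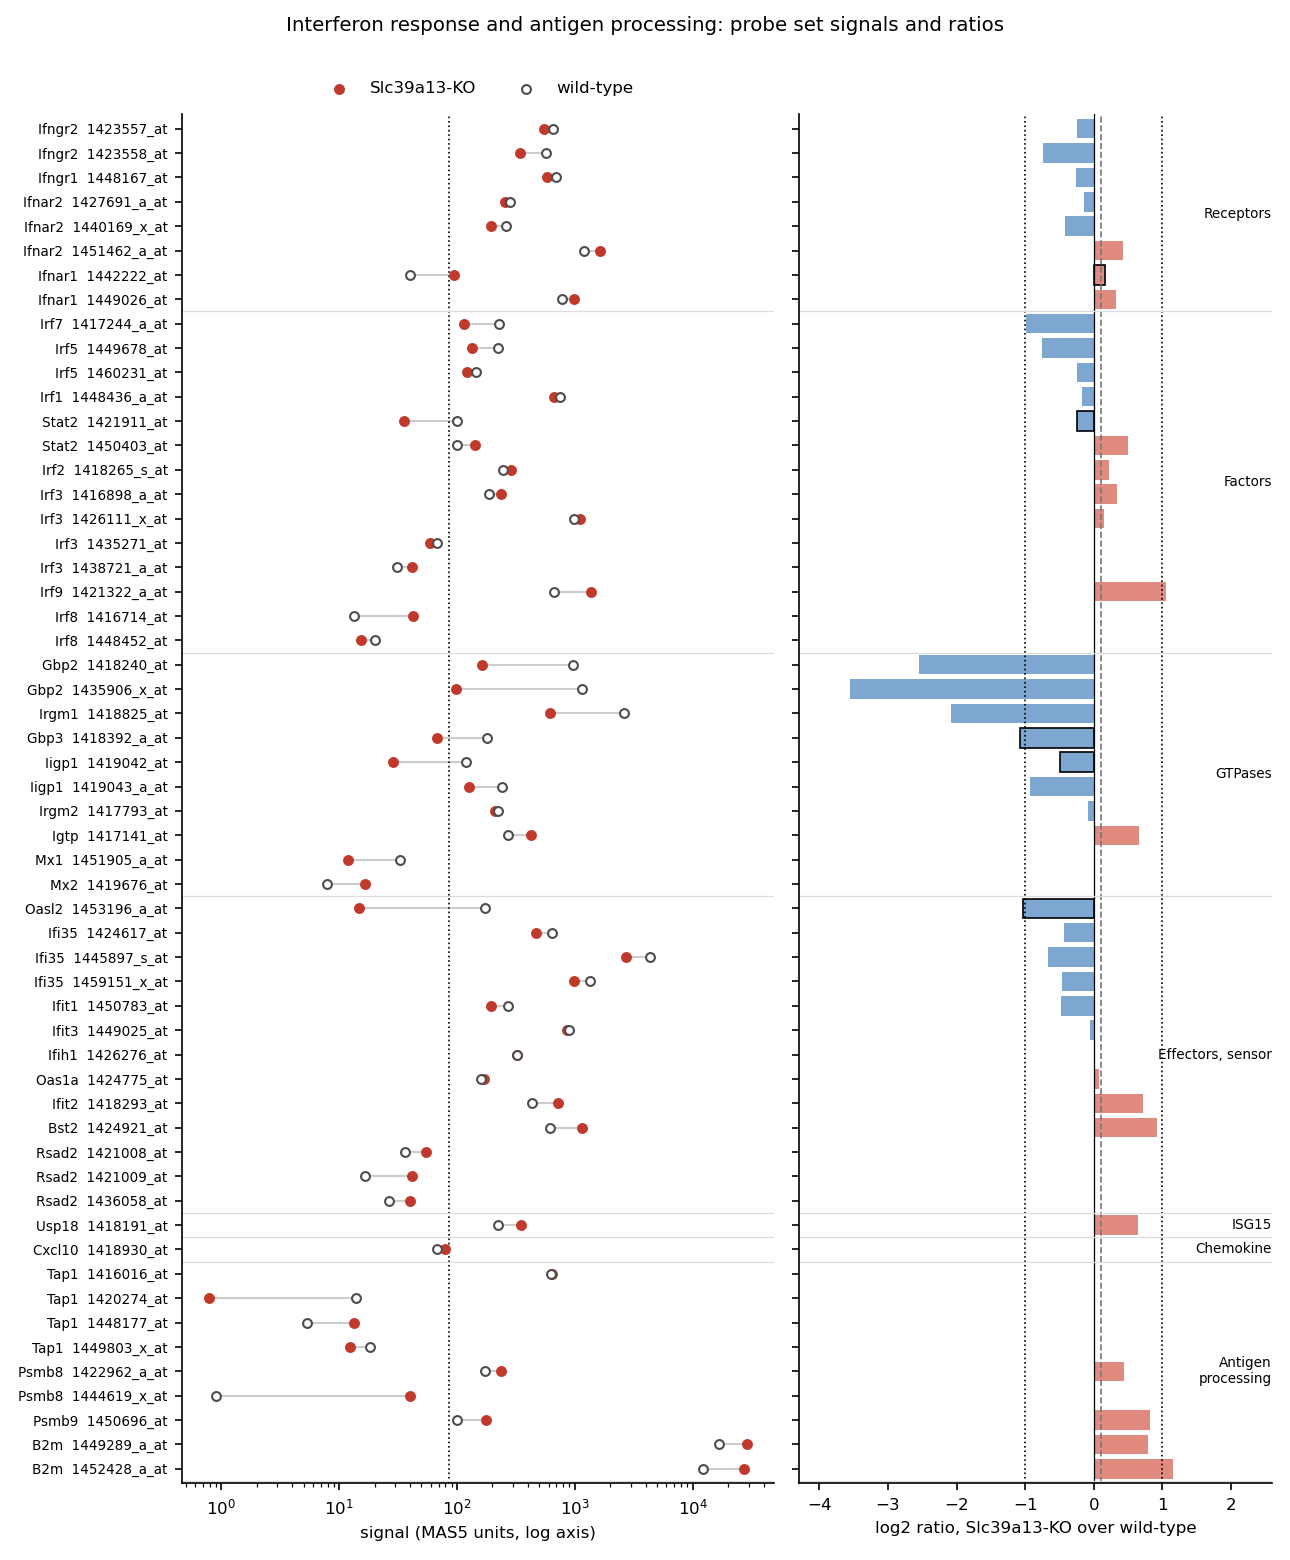
Signals of the 56 probe sets (left, MAS5 units, log axis) in Slc39a13-KO (red) and wild-type (open) osteoblasts, ordered by role, with a dotted line at the floor of 85.1, and the log2 ratio of each measured probe set (right), with a black outline where 1 array was at the floor. Dotted lines on the right mark 2-fold and the dashed line the median of all genes, 0.11; both Gbp2 probe sets and that of Irgm1 lie far to the left, and both B2m probe sets lie to the right of the median line.

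**Figure D2:**
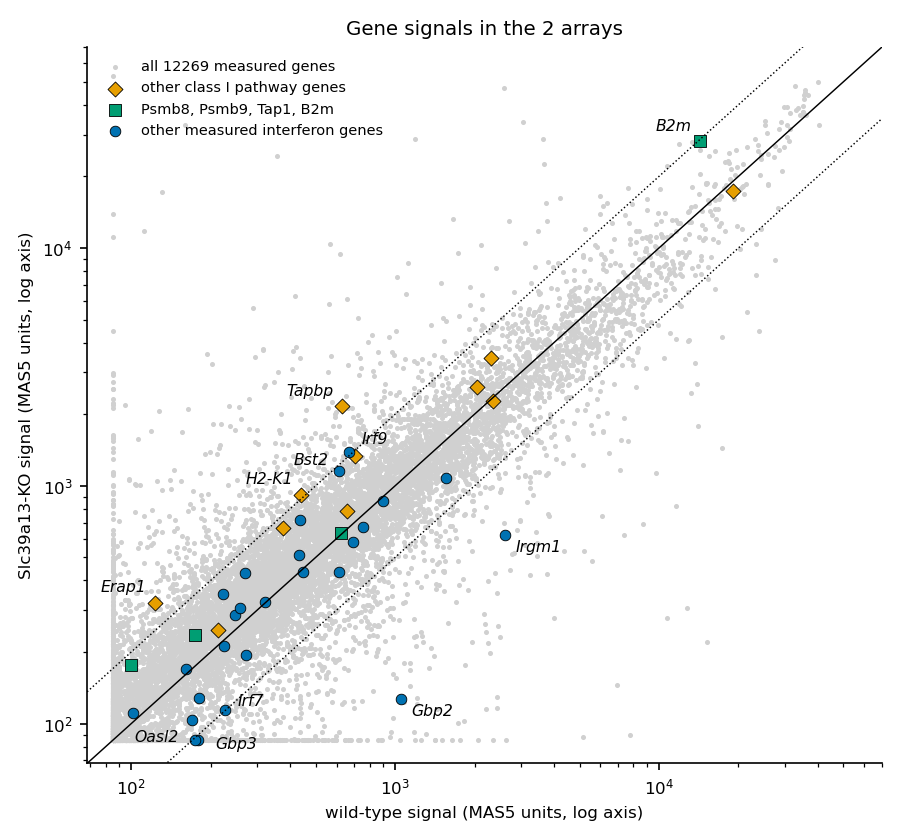
Gene signals in Slc39a13-KO (vertical) and wild-type (horizontal) osteoblasts, both in MAS5 units on log axes, for all 12269 measured genes (grey), the measured interferon genes (blue circles), the 4 antigen processing genes (green squares) and 11 further genes of the class I pathway (orange diamonds). The solid line marks equal signals and dotted lines 2-fold; Gbp2 and Irgm1 lie well below the lower dotted line, and Tapbp, Erap1, H2-K1 and Irf9 lie above the upper one.

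The ratios of the interferon receptors were within 2-fold. Ifnar1, a chain of the type I receptor, had signals of 989 in Slc39a13-KO and 786 in wild-type osteoblasts on its brighter probe set, and a gene log2 ratio of 0.24. Ifnar2, the other chain, had a mean log2 ratio of -0.05 over 3 probe sets. Its brightest had 1631 in Slc39a13-KO and 1209 in wild-type osteoblasts, and its other 2 were lower in Slc39a13-KO, with log2 ratios of -0.15 and -0.42. Ifngr1, the ligand-binding chain of the type II receptor, had 578 in Slc39a13-KO and 694 in wild-type osteoblasts. Ifngr2, the second chain of that receptor, had 549 and 344 on its 2 probe sets in Slc39a13-KO osteoblasts, against 651 and 574 in wild-type osteoblasts. Its log2 ratio of -0.49 was the lowest of the 4 receptors. Among these 4 receptors 0 were called, against 13.9% of all genes called in either direction. The genes of Ifnar1, Ifnar2 and Ifngr2 lie in 1 cluster on chromosome 16, where Ifnar1 and Ifngr2 are direct neighbours.

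None of the type I and type II interferon genes read here exceeded the floor. Ifna1, Ifna2, Ifna4, Ifnb1 and Ifng, the 5 of 8 ligand genes with a probe set, were at the floor in both arrays. Of 11 genes of JAK-STAT signaling and its feedback, 10 were measured, and 0 were called in either direction, against 13.9% of all genes. Their median was 0.43, and 8 of the 10 lay above the median of all genes. Jak1, a kinase used by both receptor types, came closest to the threshold, with a log2 ratio of 0.97 but an SD of 0.64 between 3 probe sets. Socs1, an inhibitor of JAK kinases that interferon induces, had 147 in Slc39a13-KO osteoblasts and lay under the floor in wild-type osteoblasts.

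Among transcription factors, Irf9 stood apart on the higher side. Irf9, the DNA-binding subunit of the complex that reads the ISRE, had signals of 1384 in Slc39a13-KO and 668 in wild-type osteoblasts, a 2.07-fold difference on 1 probe set. That was just past the threshold, and Irf9 was not called with median or quantile scaling (log2 ratio 0.81 with median scaling). Its partner Stat2 was close to the floor. One Stat2 probe set had 143 in Slc39a13-KO and 101 in wild-type osteoblasts, and the other lay under the floor in Slc39a13-KO osteoblasts but had 101 in wild-type osteoblasts, so no direction was given. Irf1, a factor induced by type II interferon that acts on antigen processing genes, had 672 in Slc39a13-KO and 753 in wild-type osteoblasts. Irf2, an antagonist of Irf1, and Irf3, which is activated by virus sensing, had log2 ratios of 0.22 and 0.24.

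Irf7, the interferon-induced factor that amplifies the type I response, lay on the other side from Irf9. Its signals were 114 in Slc39a13-KO and 226 in wild-type osteoblasts, a 1.98-fold difference that was not called, but was called lower with median, quantile or loess scaling. Irf5, a factor best known from myeloid cells, was dim in both arrays, with 134 and 123 on its 2 probe sets in Slc39a13-KO osteoblasts, against 225 and 145 in wild-type osteoblasts. Irf8, the factor of macrophages and dendritic cells, was at the floor in both. Of the other IRF genes and their partners that were read, Irf4 and Spi1, both of blood cells, were also at the floor in both arrays. Irf2bp2, which binds Irf2 as a co-repressor, was at least 2.55-fold higher over 4 probe sets but not called on its brightest one alone. The related Irf2bpl was 2.06-fold lower over 2 probe sets, and was not called with poly-A scaling, the floor at the 70th percentile or suffixed probe sets left out.

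The GTPases held 3 of the 4 genes called lower, and 3 of the 6 measured GTPases were called lower, against 5.93% of all genes. Some of these GTPases gather on the membrane of vacuoles that hold microbes. Gbp2, a guanylate-binding protein, had signals of 163 and 98.2 on its 2 probe sets in Slc39a13-KO osteoblasts, against 957 and 1158 in wild-type osteoblasts. Each probe set was lower in Slc39a13-KO osteoblasts, and the second carries the suffix for probes that can bind related genes. The mean of -3.06 on the log2 scale (SD 0.71, 2 probe sets), or 8.32-fold lower, placed Gbp2 near the end of the distribution, and 0.44% of all measured genes had a lower ratio. Gbp3, separated from Gbp2 by 1 protein-coding gene on chromosome 3, lay under the floor in Slc39a13-KO osteoblasts and had 180 in wild-type osteoblasts, at least 2.11-fold lower. It was not called with poly-A scaling and was not measured in 3 other alternatives. Gbp7, a relative from the list of other interferon-induced genes, was not called, and its 2 probe sets lay on opposite sides. One had 145 in Slc39a13-KO and 236 in wild-type osteoblasts. The other had 129 in Slc39a13-KO osteoblasts and lay under the floor in wild-type osteoblasts. Gbp6, from the same list, was at the floor in both arrays.

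Irgm1, an immunity-related GTPase that regulates the others of its family, had signals of 620 in Slc39a13-KO and 2619 in wild-type osteoblasts. It was 4.22-fold lower on 1 probe set. Its relatives differed less. Irgm2 had 211 in Slc39a13-KO and 224 in wild-type osteoblasts, and Igtp had 429 in Slc39a13-KO and 271 in wild-type osteoblasts, a log2 ratio of 0.66. Irgm2 and Igtp are direct neighbours on chromosome 11, and Irgm1 lies on the same chromosome with 141 protein-coding genes between it and Igtp. Iigp1, an effector GTPase of the family, had 127 in Slc39a13-KO and 241 in wild-type osteoblasts on its brighter probe set. Its other probe set lay under the floor in Slc39a13-KO osteoblasts, so the mean log2 ratio of -0.71 is a bound. Iigp1 was not called, but it was called lower if the floor was set at the 30th percentile or left out. Ifi47, a further GTPase of this family from the list of other interferon-induced genes, lay under the floor in Slc39a13-KO osteoblasts and had 451 in wild-type osteoblasts, at least 5.30-fold lower, though not called with the floor at the 70th percentile. Ifi47 lies on chromosome 11 with 7 protein-coding genes between it and Irgm1. Mx1 and Mx2, dynamin-like antiviral GTPases, were at the floor in both arrays.

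The 3 GTPases called lower are shown with their promoters, beside Igtp and Irgm2, 2 of the 3 measured GTPases that were not called. The other, Iigp1, is not shown. Each stretch runs from 250 bases before the start of the gene to 50 after it, 5′ to 3′ on the strand of the gene, from RefSeq on GRCm38.p6. Capitals mark matches to the ISRE core, searched as GAAA, any 2 bases and GAAA on either strand, and to the GAS letters TTCNNNGAA, which read the same on both strands.
Gbp2, chr3:142620413-142620712, plus strand: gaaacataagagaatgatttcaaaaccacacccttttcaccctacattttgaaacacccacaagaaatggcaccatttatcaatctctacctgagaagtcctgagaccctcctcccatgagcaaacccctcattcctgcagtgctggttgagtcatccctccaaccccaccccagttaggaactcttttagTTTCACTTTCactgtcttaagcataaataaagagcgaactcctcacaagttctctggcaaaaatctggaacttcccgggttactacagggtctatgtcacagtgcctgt
Gbp3, chr3:142559794-142560093, plus strand: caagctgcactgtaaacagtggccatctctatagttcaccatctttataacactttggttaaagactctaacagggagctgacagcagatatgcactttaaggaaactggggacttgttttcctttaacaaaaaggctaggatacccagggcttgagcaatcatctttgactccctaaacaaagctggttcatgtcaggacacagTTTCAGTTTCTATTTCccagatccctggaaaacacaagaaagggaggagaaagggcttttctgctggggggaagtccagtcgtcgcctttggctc
Irgm1, chr11:48871371-48871670, minus strand: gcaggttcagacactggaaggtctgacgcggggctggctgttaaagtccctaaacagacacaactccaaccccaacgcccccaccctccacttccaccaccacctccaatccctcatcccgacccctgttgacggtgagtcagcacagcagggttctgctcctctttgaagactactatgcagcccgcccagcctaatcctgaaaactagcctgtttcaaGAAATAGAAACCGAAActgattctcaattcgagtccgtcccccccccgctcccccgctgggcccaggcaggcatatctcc
Igtp, chr11:58199306-58199605, plus strand: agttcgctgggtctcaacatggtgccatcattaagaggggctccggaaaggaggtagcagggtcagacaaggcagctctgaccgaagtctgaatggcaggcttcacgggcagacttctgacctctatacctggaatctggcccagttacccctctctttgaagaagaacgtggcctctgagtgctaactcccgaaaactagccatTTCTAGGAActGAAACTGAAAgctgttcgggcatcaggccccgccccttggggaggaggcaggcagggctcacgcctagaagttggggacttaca
Irgm2, chr11:58214727-58215026, plus strand: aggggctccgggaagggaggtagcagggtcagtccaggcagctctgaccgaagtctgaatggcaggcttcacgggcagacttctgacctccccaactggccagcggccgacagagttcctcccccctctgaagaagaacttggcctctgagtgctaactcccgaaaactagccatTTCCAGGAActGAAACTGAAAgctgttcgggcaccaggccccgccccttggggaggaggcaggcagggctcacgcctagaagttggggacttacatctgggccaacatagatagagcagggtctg
The Gbp2, Gbp3 and Irgm1 windows held ISRE core matches and no GAS match. In Gbp3 and in Irgm1, 2 matches overlapped. The Igtp and Irgm2 windows held 1 ISRE core match and 1 GAS match each, and their longest run of identical letters was 61 bases, nearer the gene start than the ISRE core match and holding neither motif. A second Gbp3 start in the table held neither motif. A match is a string of letters and was not shown to be a binding site in these cells.

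Over the 36 genes, 32 were found in the promoter table. An ISRE core stood in the promoters of 16 of these 32 genes, against 3.99% of all 27025 genes of the table. A GAS match stood in 12 of 32 (37.5%), against 9.55% of all genes, and the kappa-B letters (GGGA, any base and TTTCC, on either strand) in 2 of 32, against 0.466%. Of the 4 genes called lower, 3 held an ISRE core, 0 held a GAS match and 0 held kappa-B letters. Of the 23 measured genes that were not called and had a promoter, 10 held an ISRE core and 11 a GAS match. Among them, B2m, Ifit1, Ifit3, Ifih1 and Stat2 held an ISRE core without a GAS match, so that pattern was not particular to genes called lower. Neither Oasl2, called lower, nor Irf9, called higher, held any of the 3 motifs in these windows.

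**Figure D3:**
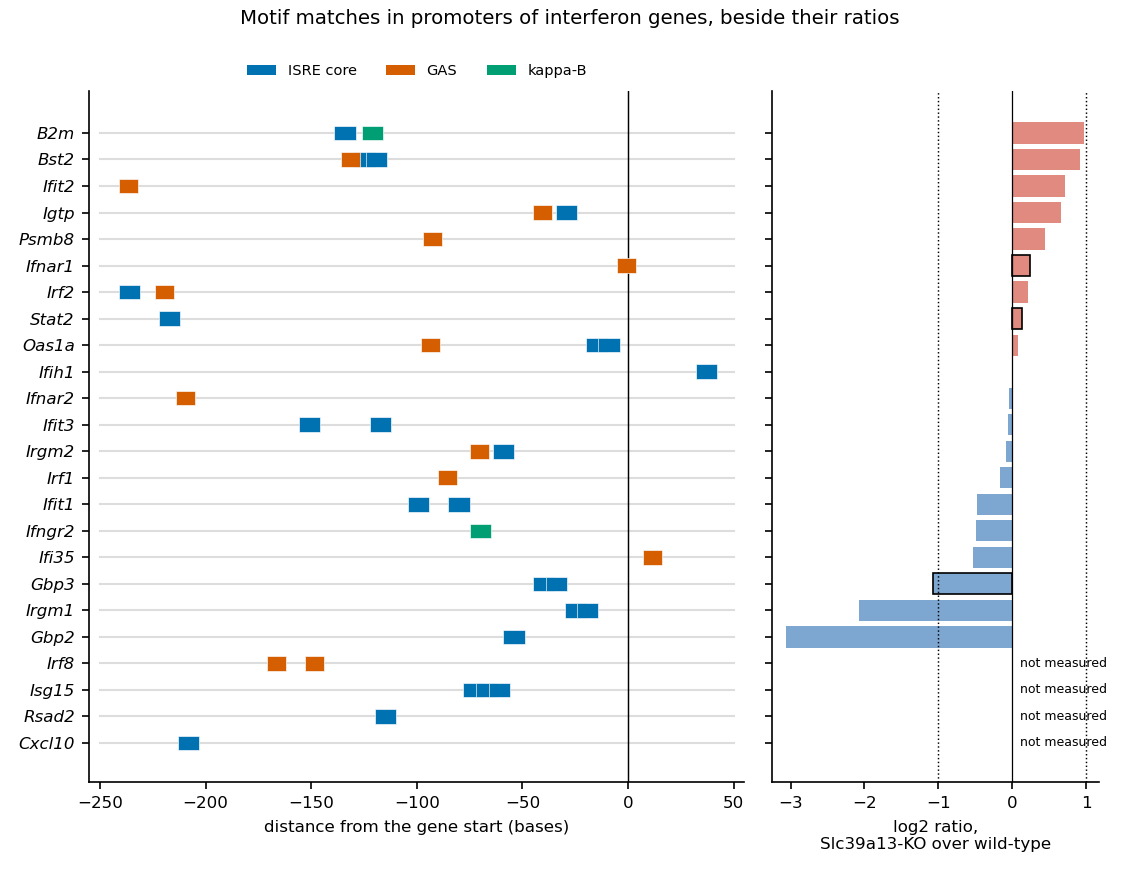
Positions of ISRE core (blue), GAS (orange) and kappa-B (green) matches in the promoters of those of the 36 genes that held any (left, horizontal axis in bases from the gene start), beside the log2 ratio of each gene (right, black outline for a bound, dotted lines at 2-fold). Genes are ordered from B2m at 0.97 to Gbp2 at -3.06, with those not measured at the bottom. ISRE core matches stand along the whole order. Gbp3, Irgm1 and Gbp2 have blue marks only, and so do Ifit1, Ifit3, Ifih1 and Stat2, which were not called. The same holds for Cxcl10, Isg15 and Rsad2, which were not measured.

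The antiviral effectors were spread over both sides. Oasl2, an oligoadenylate synthetase-like protein, lay under the floor in Slc39a13-KO osteoblasts and had a signal of 174 in wild-type osteoblasts, at least 2.05-fold lower on 1 probe set. It was not called with poly-A scaling and was not measured in 3 other alternatives. Bst2, which tethers budding viruses to the cell surface, lay on the other side, with 1156 in Slc39a13-KO and 611 in wild-type osteoblasts, a log2 ratio of 0.92 that was not called. The Ifit proteins, which bind viral RNA and lie close together on chromosome 19, lay on both sides. Ifit1 had 195 in Slc39a13-KO and 272 in wild-type osteoblasts. Ifit2 had 718 in Slc39a13-KO and 435 in wild-type osteoblasts. Ifit3, the direct neighbour of Ifit2, had 867 in Slc39a13-KO and 902 in wild-type osteoblasts. All 3 were within 2-fold.

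The remaining effectors were not called. Ifi35, a leucine zipper protein, was a little lower on each of its 3 probe sets, with a mean log2 ratio of -0.52 and a narrow SD of 0.13. Oas1a, an oligoadenylate synthetase, had 170 in Slc39a13-KO and 161 in wild-type osteoblasts. Ifih1, a sensor of double-stranded RNA, had 325 in Slc39a13-KO and 323 in wild-type osteoblasts, the smallest difference of the 30 genes. Usp18, a protease that removes the ubiquitin-like ISG15 and restrains type I receptor signaling, had 350 in Slc39a13-KO and 223 in wild-type osteoblasts, a log2 ratio of 0.65. Rsad2 (viperin) was under the floor on all of its 3 probe sets. Cxcl10, a chemokine that attracts T cells, was under the floor in both arrays, and so were its relatives Cxcl9 and Cxcl11.

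Other interferon-induced genes, a list of 45 that shares no gene with the 36, had 34 measured members. Of these, 0 were called higher, against 8.01% of all genes, and 4 (11.8%) were called lower, against 5.93% of all genes. The list median was 0.25, against 0.11 for all genes. Beside Ifi47, these were Ifitm3, Trim25 and Ly6e. Ifitm3, a membrane protein that blocks virus entry, had 4484 in Slc39a13-KO and 23939 in wild-type osteoblasts, 5.34-fold lower on 1 probe set. Its relatives differed less, as Ifitm2 had 18555 in Slc39a13-KO and 15027 in wild-type osteoblasts, and Ifitm1 had 189 in Slc39a13-KO and 251 in wild-type osteoblasts. Trim25, a ubiquitin ligase that acts on an RNA sensor, was at least 3.68-fold lower as the mean of 3 probe sets. Its brightest had 186 in Slc39a13-KO and 1112 in wild-type osteoblasts. Ly6e, a membrane-anchored surface protein, was at least 2.16-fold lower as the mean of 2 probe sets, but was not called with poly-A scaling or with only probe sets without suffix. Among 12 measured genes of nucleic acid sensing, 0 were called higher, against 8.01% of all genes, and 1 (8.33%) lower, against 5.93%. That gene was Sting1, the adaptor of DNA sensing, at least 2.32-fold lower over 2 probe sets. Its brighter probe set had 156 in Slc39a13-KO and 397 in wild-type osteoblasts, and it was not called with poly-A scaling or the floor at the 70th percentile.

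The 4 antigen processing genes had ratios above 0, as did 7154 of all 12269 measured genes. Their median was 0.63, against 0.11 for all genes, and 3 of the 4 lay above the median of all genes. Tap1 lay below it, and was below 0 with median, quantile and loess scaling. Of the 4, 0 were called, against 13.9% of all genes called in either direction. B2m, the invariant light chain of class I molecules, was read by 2 probe sets. They had 28798 and 27374 in Slc39a13-KO osteoblasts, against 16707 and 12253 in wild-type osteoblasts. Each probe set was higher in Slc39a13-KO osteoblasts, with log2 ratios of 0.79 and 1.16. The mean of 0.97, or 1.96-fold, just missed the threshold, and B2m was called higher with loess and poly-A scaling. Psmb8 and Psmb9, catalytic subunits that interferon places in the immunoproteasome, had 236 and 177 in Slc39a13-KO osteoblasts, against 174 and 99.8 in wild-type osteoblasts. Their log2 ratios were 0.44 and 0.83, from signals near the floor. Tap1, a subunit of the peptide transporter of the endoplasmic reticulum, had 636 in Slc39a13-KO and 626 in wild-type osteoblasts. Psmb8, Psmb9, Tap1 and Tap2 form a tight cluster on chromosome 17, and Tap1 had the smallest ratio of the 4.

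The B2m promoter is shown because B2m lay just under the threshold on the higher side. Its window, from RefSeq on GRCm38.p6, is written as those above, with an ISRE core match and, after it, a match to the kappa-B letters in capitals.
B2m, chr2:122147437-122147736, plus strand: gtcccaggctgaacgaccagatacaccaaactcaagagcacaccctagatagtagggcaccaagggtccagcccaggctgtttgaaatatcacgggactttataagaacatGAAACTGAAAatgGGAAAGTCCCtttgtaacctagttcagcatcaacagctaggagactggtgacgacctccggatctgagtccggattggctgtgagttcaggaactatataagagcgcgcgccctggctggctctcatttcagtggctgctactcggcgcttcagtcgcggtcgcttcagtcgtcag

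Of a list of 18 further genes of the class I pathway, 11 were measured. Of these, 3 (27.3%) were called higher, against 8.01% of all genes, 0 were called lower, against 5.93% of all genes, and 9 lay above the median of all genes. The list median was 0.58, against 0.11 for all genes, and it stayed above the median of all genes in all 10 alternatives, from 0.33 against -0.11 with median scaling to 1.53 against 0.94 with poly-A scaling. Tapbp (tapasin), which holds class I molecules at the peptide transporter, had 5036 and 931 on its 2 probe sets in Slc39a13-KO osteoblasts, against 1789 and 219 in wild-type osteoblasts, and was 3.46-fold higher. Erap1, which trims peptides in the endoplasmic reticulum, had 572 in Slc39a13-KO and 177 in wild-type osteoblasts on its brighter probe set, and was at least 2.62-fold higher as the mean of 2, but was not called with the floor at the 70th percentile.

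H2-K1, a class I heavy chain, was 2.08-fold higher, and all 4 of its measured probe sets lay on the higher side. Its brightest probe set had 3254 in Slc39a13-KO and 1559 in wild-type osteoblasts. H2-D1, the other classical heavy chain read here, had a brightest probe set with 5585 in Slc39a13-KO and 1870 in wild-type osteoblasts. Over its 4 measured probe sets the mean log2 ratio was 0.92 with an SD of 0.58, and it was not called, but it was called higher on its brightest probe set alone, with poly-A scaling and at the 70th percentile floor. All measured H2-K1 probe sets and 3 of the H2-D1 ones carry the suffix for probes that can bind related genes, and class I genes are near-identical in parts, so the 2 genes cannot be told apart with certainty. H2-K1 kept its call in 5 of 10 alternatives. It was not called with median, quantile or loess scaling or the floor at the 70th percentile, and was not measured without suffixed probe sets. Tap2, the partner of Tap1, had 668 in Slc39a13-KO and 375 in wild-type osteoblasts, a log2 ratio of 0.83. Nlrc5, the transactivator of class I genes, was at the floor in both arrays.

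Of 14 subunits of the constitutive proteasome 0 were called, against 13.9% of all genes called in either direction. A ratio below 0 was seen for 13 of the 14, as for 5115 of all 12269 measured genes. All 14 lay below the median of all genes, and the list median was -0.33. With poly-A scaling that median was 0.66, above 0 but still below the 0.94 of all genes. Psmb5, the subunit that Psmb8 replaces, had 4073 in Slc39a13-KO and 5762 in wild-type osteoblasts, a log2 ratio of -0.50. Psmb6, which Psmb9 replaces, had 4607 in Slc39a13-KO and 4917 in wild-type osteoblasts. Psmb7, which Psmb10 replaces, had 8992 in Slc39a13-KO and 8725 in wild-type osteoblasts, and Psmb10 had 786 in Slc39a13-KO and 659 in wild-type osteoblasts. The log2 ratios of the inducible subunits and their counterparts were 0.44 for Psmb8 and -0.50 for Psmb5, 0.83 for Psmb9 and -0.09 for Psmb6, and 0.25 for Psmb10 and 0.04 for Psmb7. The differences within these pairs were not tested, and that of Psmb10 and Psmb7 was the smallest. Each of these subunits was read by 1 measured probe set, and with 1 array per genotype the variation between cultures is not known.

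**Figure D4:**
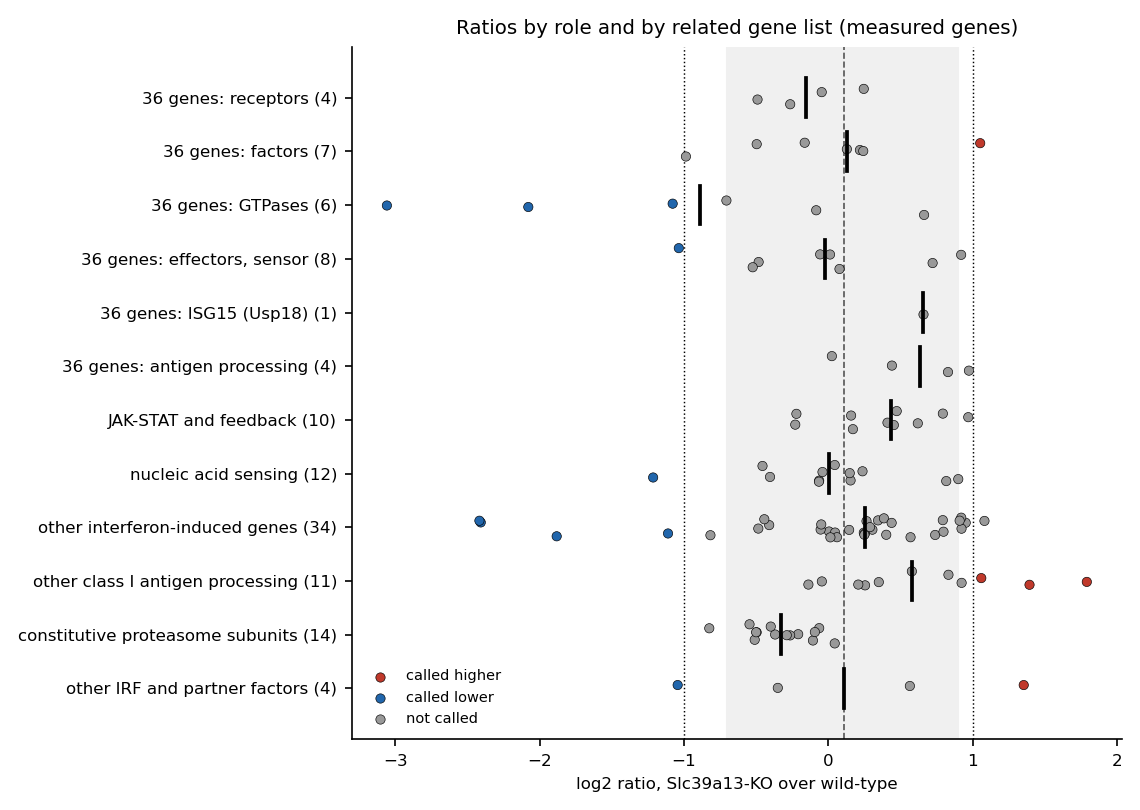
Log2 ratio, Slc39a13-KO over wild-type (horizontal axis), by role within the 36 genes and for related lists, each point 1 measured gene, red if called higher, blue if called lower and grey if not called, with a black line at the median and the number of genes in parentheses. The grey band spans the 10th to the 90th percentile of all measured genes (-0.70 to 0.89), the dashed line marks their median of 0.11 and dotted lines 2-fold; the constitutive proteasome subunits lie left of the dashed line and 9 of the 11 other class I genes right of it.

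Markers of other cells differed between the arrays too. In cultures read in bulk, a difference in the number of cells of a type and a difference in RNA per cell cannot be told apart. Of 22 macrophage markers 15 were measured. Of these, 7 (46.7%) were called higher, against 8.01% of all genes, and 1 (6.67%), Cd53, lower, against 5.93%. For 11 of the 15 the ratio is a bound, with a probe set under the floor in wild-type osteoblasts. Signals of all 22 markers summed to 7306 in Slc39a13-KO osteoblasts and 2451 in wild-type osteoblasts. The lysozyme Lyz2 had the largest ratio of them, with 2146 in Slc39a13-KO and 255 in wild-type osteoblasts. Ptprc, Itgam, Cx3cr1, Aif1, Fcgr1, Mpeg1 and Cd163 were at the floor in both arrays. Macrophages express B2m, class I genes and many interferon-induced genes, and the part of these cells in the values above was not tested.

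Markers of cells that present antigen on class II molecules lay on both sides. Of 9, 4 were measured and 0 were called, against 13.9% of all genes called in either direction. H2-DMa, a chain of the class II peptide exchange factor, had 119 in Slc39a13-KO and 234 in wild-type osteoblasts, a log2 ratio of -0.97. H2-Eb1 had a log2 ratio of -0.14. Ciita lay under the floor in Slc39a13-KO osteoblasts and had 91.9 in wild-type osteoblasts, so its log2 ratio of -0.11 is a bound. Cd74, the invariant chain, had 131 in Slc39a13-KO and 85.7 in wild-type osteoblasts, and H2-Aa and H2-Ab1 were at the floor in both arrays. Of 9 T and NK cell markers 1 was measured, Cd8a, which was not called. No B cell marker was measured. All 8 chondrocyte markers were called higher, against 8.01% of all genes. They summed to 145616 in Slc39a13-KO osteoblasts and 3717 in wild-type osteoblasts. Of 5 smooth muscle markers 4 were called lower, against 5.93% of all genes. Signals of all 5 summed to 30113 in Slc39a13-KO osteoblasts and 77434 in wild-type osteoblasts. Of 5 measured endothelial markers 2 were called lower, Ptprb and Flt1, against 5.93% of all genes. The other measured ones, Egfl7, Cdh5 and Tek, were not called. Their log2 ratios were 0.71, 0.01 and -0.03, those of Egfl7 and Cdh5 as bounds. The list median was -0.03, and Pecam1 and Kdr were at the floor in both. The part of these cells in the values of the GTPases and of Ifitm3 was not tested.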

How the data were processed

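RNA of 1 Slc39a13-KO and 1 wild-type osteoblast culture was read on 1 Affymetrix mouse array each. The deposited values are linear signal intensities that the authors computed for each probe set; the submitters' processing notes name MAS5 without a version. The methods of the study name gcRMA for its own analysis, but the values are linear and have the same trimmed mean (2% at each end), 500.003, in both arrays, as MAS5 scaling gives. Scaling hides a difference in total mRNA, and MAS5 leaves low signals noisy.

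Values were processed with Python 3.11.15 (pandas 2.3.3). Gene symbols came from the platform annotation; 34945 of 45101 probe sets had 1 symbol, 932 had several, 9160 had none and 64 were controls. The suffixes _s and _x mark probe sets shared between transcripts or with related sequences, and _a marks transcripts of 1 gene. Groups came from the sample titles. The calling steps were checked on simulated data with known differences, planted in genes well above the floor. Its noise was the spread between probe sets only. That check does not cover bounds, signals near the floor or variation between cultures or arrays, so it does not bear on how certain single calls are. Alternatives were median, quantile, loess and poly-A control scaling, a floor at the 30th or 70th percentile or none, the brightest probe set, probe sets without suffix, and only those probe sets that exceeded the floor in each array.

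The genes and lists were chosen with earlier results of these data known, so no list is independent evidence. By rule, full values were given for genes called, the receptors, Stat2, Irf1, Irf9, Psmb8, Psmb9, Tap1 and B2m, for at most 6 called genes of the related lists in each direction, and for H2-K1, H2-D1, Tap2 and Psmb10; other genes named were chosen after their values were seen. The number of arrays limits the precision.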

Additional observations from a re-analysis of the deposited data

How the results depend on the processing

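The settings are those listed under processing; for the class I list, the other related lists and their named genes, they were chosen after seeing the data. Gbp2 and Irgm1 were called lower in all 10 alternatives, with log2 ratios from -3.30 to -1.72 and from -2.32 to -1.06. Gbp3 and Oasl2 were not called with poly-A scaling and fell out of the measured genes at the 70th percentile floor, without suffixed probe sets, or with both arrays above the floor. None of the 5 genes called among the 36 changed sign in any alternative that measured it. The count of genes called higher, 1 as reported, was 0 with median and with quantile scaling and without suffixed probe sets, 2 with loess and 14 with poly-A scaling, where 45.8% of all genes were called higher. The count called lower, 4 as reported, was 2 with poly-A scaling, at the 70th percentile floor, without suffixed probe sets and with both arrays above the floor, and 5 with median, quantile and loess scaling, at the 30th percentile floor and with no floor. The median of -0.02 was -0.26 with median, -0.16 with quantile, -0.17 with loess and 0.97 with poly-A scaling, and 0.078 at the 70th percentile floor. The medians of all genes were -0.11, 0.00, 0.03, 0.94 and 0.05 in these settings. In the class I list, 9 of 11 genes were called higher with poly-A scaling, against 3 as reported. Its median of 0.58 was 0.33 with median scaling, 1.53 with poly-A scaling, 0.70 at the 70th percentile floor and 0.39 without suffixed probe sets. No paired analysis was possible because each genotype had 1 array. Signals near the floor, as for Gbp3, Oasl2, Stat2, Iigp1 and Psmb9, limit what can be said of these genes. The same holds for Gbp2, Irf5 and Irf7, whose signals lay near the floor in Slc39a13-KO osteoblasts. At the 70th percentile floor the Gbp2 log2 ratio was -1.72.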

Other observations

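Some interferon-induced genes outside the 36 had probe sets that went opposite ways, so that a gene mean hides them; these genes were picked after their values were seen. Xaf1, a pro-apoptotic protein, had 1246 in Slc39a13-KO osteoblasts and lay under the floor in wild-type osteoblasts on 1 probe set, with a log2 ratio of at least 3.87, but had 247 in Slc39a13-KO and 809 in wild-type osteoblasts on the other, with a log2 ratio of -1.71. Samhd1, a hydrolase of nucleotides that restricts viruses, had 1557 and 1302 on 2 probe sets in Slc39a13-KO osteoblasts, against 728 and 496 in wild-type osteoblasts. On 2 other Samhd1 probe sets it had 162 and 192 in Slc39a13-KO osteoblasts, against 508 and 333 in wild-type osteoblasts. The mean log2 ratio of Samhd1 was 0.01 with an SD of 1.47. Neither gene was called.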
